A study of Mus musculus with 6 samples.

Results

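The matrix metalloproteinases and inhibitors described here were 10 genes of the 38355 listed in the counts, comprising the proteases Mmp2, Mmp9, Mmp12, Mmp14, Mmp15, Mmp16 and Mmp17 and the inhibitors Timp2, Timp3 and Timp4. They were chosen by name when their levels and age differences in these same counts were already known, among them the low values of Mmp12 at 16 months. Their age differences are therefore descriptions. Where one of them is said to pass or miss the threshold of the fit over all genes ("called" or "not called"), this restates values that were known at the choice and is no independent evidence. Other genes of both families that the cortex expresses, such as Mmp24 and Timp1, were not among the 10 and are described separately.

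Polyadenylated RNA was sequenced from cortical hemispheres of C57BL/6 mice, an inbred laboratory strain, with 3 samples for each age, 6 and 16 months, to ask which cortical transcripts differ between young and aged animals. No transgene or treatment is named for either age, chloral hydrate served as the anaesthetic for all mice, and the study's methods, in the section on sorted cells, name male mice alone for sequencing. The housing text among the labels names 3 months for the younger age, whereas the other labels and the study give 6 months, the age used here. Between 29797253 and 46519280 reads were counted on genes per sample.

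The 16-month libraries were less alike than the 6-month libraries. In replicate 1 of 16 months, the deviation of a gene from the mean of its age correlated with the GC content of its transcript (r = 0.588 across 16904 genes, a description since genes are not replicates), and in replicate 2 it correlated in the opposite direction (r = −0.582), whereas in the other 4 samples r lay between −0.130 and 0.160. The age differences of the members other than Mmp12 are given with and without either library. The tissue expressed its labelled identity, since 8 neuronal markers together reached between 7110 and 7758 CPM (counts per 1000000 reads counted on genes, after TMM normalization). Markers of neighbouring tissue were also present, and their sums were higher at 16 months. The 7 thalamic markers stood at 91.2 to 93.8 CPM at 6 months against 117 to 128 CPM at 16 months (5 of 7 called higher). Choroid plexus markers stood at 20.1 to 20.8 against 28.3 to 32.2 CPM (1 of 7 called higher). Most of that difference was Ttr (means of 8.95 and 17.8 CPM), and 2 of the 7 tested had a negative log2 fold change. Markers of blood stood at 27.3 to 30.7 against 44.9 to 50.3 CPM (2 of 5 called higher). Summed markers of oligodendrocyte precursors stood at 150 to 158 against 186 to 206 CPM (1 of 6 called higher). Those of fibroblasts and meninges were lower, at 60.0 to 64.2 against 49.7 to 52.0 CPM (1 of 8 called lower). Sums for endothelium (159 to 161 against 152 to 156 CPM) and mural cells (156 to 164 against 146 to 152 CPM) were also lower, with 0 called. Astrocyte markers summed to 1695 to 1724 against 1745 to 1837 CPM, although the 1 of 8 called, Gfap, was lower. Over all 17120 genes tested, 0.783% were called higher and 0.888% lower. The part of these tissues and cells in the values of the proteases and inhibitors was not tested.

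Matrix metalloproteinases are zinc-dependent endopeptidases that cleave collagens, proteoglycans and surface proteins, and most are made as inactive precursors that other proteases activate. Some are secreted, such as the gelatinases Mmp2 and Mmp9 and the macrophage elastase Mmp12, whereas Mmp14, Mmp15 and Mmp16 span the plasma membrane and Mmp17 is held there by a lipid anchor. The tissue inhibitors of metalloproteinases (Timps) occupy the catalytic site, and in brain the balance between proteases and inhibitors is known for its role in remodelling perineuronal nets, synapses and the vascular basement membrane.

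All 10 genes had reads in cortex, but their levels differed widely. Levels of different genes were compared per length, as CPM per kb of annotated exon. The inhibitor Timp2 stood highest, with 66.7, 62.7 and 65.0 CPM per kb in the 6-month samples and 70.9, 65.6 and 65.0 in the 16-month samples. Mmp17 was the most abundant of the 7 proteases, with 28.1, 26.5 and 26.8 CPM per kb at 6 months and 35.5, 27.2 and 29.7 at 16 months. Behind these came the inhibitors Timp3 and Timp4, with means of 8.90 ± 0.283 and 5.79 ± 0.0898 CPM per kb at 6 months (SD, n = 3), and Mmp16 with 5.09 ± 0.0381. The mean levels of Mmp15 and Mmp14 at 6 months were 2.22 and 1.70 CPM per kb, and those of the gelatinases Mmp2 and Mmp9 were 0.679 and 0.320. Mmp12 was the rarest, with a mean level of 0.0556 CPM per kb at 6 months and 0.00274 at 16 months. In this order the lowest sample of each gene lay above the highest sample of the next gene, over all 6 samples. When the length of the longest transcript replaced the combined exon length, Mmp16 moved ahead of Timp4 (8.49 against 6.39 CPM per kb over all samples) and Mmp14 ahead of Mmp15 (3.09 against 2.67), and the other 6 ranks stayed.

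**Figure D1:**
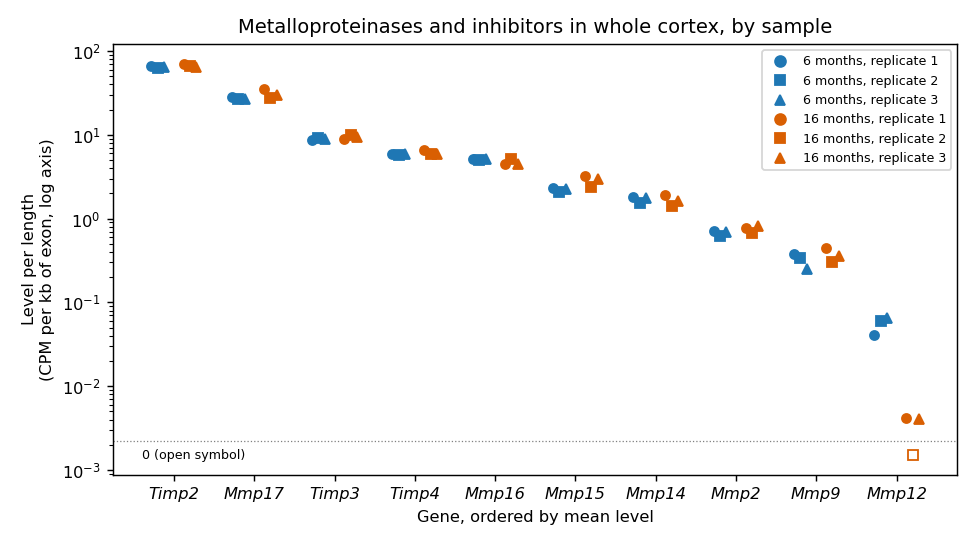
Level per length (CPM per kb of exon, log axis) of the 10 genes in each of the 6 samples, blue for 6 months and orange for 16 months, with a symbol shape for each replicate and an open symbol for a value of 0. Timp2 lies at 62.7 to 70.9 in every sample, and Mmp12 lies lowest, at 0.0412 to 0.0658 at 6 months and at 0 to 0.00417 at 16 months.

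Of the summed level per length of the 7 proteases, Mmp17 took between 72.6% and 76.5% in a sample. Timp2 took between 80.5% and 82.2% of the summed level of the 3 inhibitors. The 3 inhibitors together exceeded the 7 proteases in all samples. The ratio was 2.11, 2.14 and 2.16 at 6 months and 1.86, 2.20 and 2.00 at 16 months. The ratio was thus both lowest and highest at 16 months, in replicates 1 and 2, and the ages overlapped. Shares and ratio cover the 10 genes alone, by combined exon length. Outside them, the protease Mmp24 had means of 7.90 and 9.24 CPM per kb at 6 and 16 months, and the inhibitor Spock3 29.3 and 27.2. By the longest transcript, mean levels over all samples were higher for Mmp16 (8.49 against 4.91) and Timp3 (15.8 against 9.16). The shares of Mmp17 and Timp2 would then be lower.

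Mmp12, an elastin-degrading protease known mainly from macrophages, was nearly absent from the aged samples. It had 14, 13 and 20 counts in the 6-month samples and 1, 0 and 1 counts in the 16-month samples. All samples of 16 months lay below all samples of 6 months, although even the highest value was only 20 reads. Expressed as CPM, the values were 0.299, 0.433 and 0.476 at 6 months and 0.0301, 0 and 0.0293 at 16 months, where 3 counts corresponded to between 0.0645 and 0.101 CPM, so that the aged samples lay at or under the limit that 3 counts set. Summed over samples, 47 counts at 6 months stood against 2 counts at 16 months, which relative to depth is a ratio of 19.5 with a 95% interval of 5.11 to 166 for counting error alone. The fitted log2 fold change of −4.08 (SE 0.625) depends on the prior count that the fit adds and is no bound. In the fit over all 17120 genes tested, Mmp12 was the one member past an adjusted p of 0.05. It passed the filter on low counts through its 6-month samples alone, and with at least 10 counts required in every sample it was not tested and 0 members were called. The call was lost when replicate 2 or 3 of 6 months or replicate 3 of 16 months was left out, with log2 fold changes of −4.04, −3.91 and −4.40, and was kept without replicate 1 of 6 months (−4.27) and without replicates 1 and 2 of 16 months (−4.42 and −3.60).

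Of all 17120 genes, 286 passed the same threshold (1.67%), 152 of them lower at 16 months (0.888%) and 134 higher (0.783%). Beside this stood 1 of the 10 genes, lower, and since Mmp12 was chosen with this difference known, nothing is read from that share. An unadjusted p under 0.05 was found for 2987 of the 17120 genes (17.4%), and DESeq2's Wald test called 470 of 17623 (2.67%), against which the counts of the gene lists are to be read.

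In bulk tissue, fewer cells of a type and less RNA per cell cannot be told apart. For Mmp12 the levels of the myeloid markers therefore stand beside it. None of the 10 markers of microglia, the resident macrophages of the brain, passed the test, and 2 (against 17.4% of all genes) had an unadjusted p under 0.05 and DESeq2 called 1. Their summed level ranged from 457 to 466 CPM at 6 months and from 463 to 481 CPM at 16 months, and their median log2 fold change was −0.019. Likewise none of the 8 markers of macrophages at the borders of the brain passed by edgeR or DESeq2 (3 at an unadjusted p under 0.05, against 17.4% of all genes), with sums of 31.0 to 32.3 CPM and 30.2 to 34.0 CPM. Most of these sums was Stab1 (means of 18.9 and 19.6 CPM), so they say little of the other markers. Samples of the ages lay apart for Mrc1 and Ms4a7, lower at 16 months (against 11.5% of all genes), and for Lyve1 and F13a1, higher (against 12.2%).

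Markers of infiltrating myeloid cells were near the floor. Of the 8, only Itgax, an integrin of dendritic cells and of activated microglia, had enough counts to be tested. It had 33, 17 and 28 counts at 6 months and 5, 6 and 2 counts at 16 months, without overlap. It passed the filter through its 6-month samples alone and is singled out here with its values known, so that this is a description. The defining neutrophil genes S100a8 and S100a9 had 1 to 10 and 3 to 9 counts per sample, and the monocyte gene Ly6c2 was at 0 in all 6-month samples and at 1 in each 16-month sample. The summed level of the 8 genes was 1.33 to 1.56 CPM at 6 months and 0.878 to 1.27 CPM at 16 months. Itgax alone went from a mean of 0.646 to 0.134 CPM, so the lower sum does not describe the other genes. Those differed in both directions near the floor, such as S100a8 (means of 0.126 and 0.203 CPM) and S100a9 (0.197 and 0.173 CPM). The part of these cells in the difference of Mmp12 was not tested.

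Mmp12 lies on chromosome 9 (7344381 to 7369499, plus strand, GRCm38) within a cluster of 10 metalloproteinase genes that spans 427 kb. Of these, 6 genes, namely Mmp1a, Mmp1b, Mmp7, Mmp10, Mmp20 and Mmp27, had 0 counts in all 6 samples. The stromelysin Mmp3 had 1, 2 and 2 counts at 6 months and 0 in each 16-month sample, which is at or under 3 counts in every sample. The collagenases Mmp13 and Mmp8 had 0 to 3 and 0 to 2 counts per sample, at either age. Mmp12 was hence the one gene of the cluster with more than 3 counts in any sample, with 49 counts over the 6 samples. Its exons share 157 bases (2.17%) with those of Mmp1b on the opposite strand, and Mmp1b had no counts.

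To show what lies at the start of the gene with the largest age difference and of the gene with the next largest, Mmp15, stretches of their promoter windows are given from RefSeq (GRCm38.p6), 250 bases before the annotated start and the first 30 bases after it, both on the plus strand. RefSeq has 2 start sites for Mmp12, and the stretch shown belongs to the downstream start (chr9:7347124-7347403), since the window of the upstream start held neither of the motifs marked here. That of Mmp15 is chr8:95352046-95352325. Capitals mark the AP-1 letters TGANTCA and the TATA letters TATAAA in Mmp12 and the GC box GGGCGG in Mmp15, where the match is on the opposite strand and reads CCGCCC.
Mmp12: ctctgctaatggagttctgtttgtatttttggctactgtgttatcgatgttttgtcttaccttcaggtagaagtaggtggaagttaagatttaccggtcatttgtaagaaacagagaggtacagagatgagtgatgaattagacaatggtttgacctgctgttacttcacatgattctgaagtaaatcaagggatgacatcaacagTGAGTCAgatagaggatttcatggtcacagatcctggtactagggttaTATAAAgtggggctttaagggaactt
Mmp15: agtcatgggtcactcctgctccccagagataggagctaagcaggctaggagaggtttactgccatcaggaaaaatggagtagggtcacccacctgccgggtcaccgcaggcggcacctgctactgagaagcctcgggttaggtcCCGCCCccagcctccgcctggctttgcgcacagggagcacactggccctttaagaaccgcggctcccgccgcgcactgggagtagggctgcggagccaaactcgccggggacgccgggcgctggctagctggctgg
These motifs and the ETS letters AGGAAG were searched on both strands of the full windows of 300 bases. The AP-1 letters at bases 207 to 213 and the TATA letters at bases 255 to 260 of the Mmp12 window were the only matches to either motif in the windows of the 6 genes for which RefSeq windows were at hand (Mmp12, Mmp14, Mmp15, Timp2, Timp3 and Timp4). Over all 32851 windows, 7.81% held the AP-1 letters and 13.6% the TATA letters. The Mmp12 window shown was chosen because it held both, so nothing is read from these shares. Its TATA letters begin 4 bases after the annotated start. A GC box was found for Mmp14, Mmp15, Timp2 and Timp3 but in neither Mmp12 window nor for Timp4, against 35.7% of all windows. The ETS letters were found in the upstream window of Mmp12 and in those of Mmp14, Timp3 and Timp4, against 35.4% of all windows. The Mmp12 window shown held 3 CpG dinucleotides and its upstream window 0. The windows of Mmp15, Timp3 and Timp2 held 22, 24 and 25 and that of Mmp14 held 10, around a median of 7 over all windows. Timp4 held 2. These matches describe letters and say nothing of binding.

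Mmp15, a membrane-spanning protease (chromosome 8, 95352268 to 95375080, plus strand), had the second largest difference. Its level was 12.5, 11.3 and 12.2 CPM at 6 months and 17.6, 12.7 and 16.2 CPM at 16 months. The ages did not overlap, but the lowest 16-month sample, replicate 2, exceeded the highest 6-month sample by little (12.72 against 12.54 CPM). The log2 fold change of 0.37 (SE 0.110, 95% interval 0.12 to 0.61) was not called. Without replicate 2 of 16 months, the library with the opposite relation to GC content, the log2 fold change was 0.49 and the gene was called. Without replicate 1 it was 0.27 and not called. With the GC and length offsets it was 0.31 and called. Over all genes, 2211 were called without replicate 2 and 2376 with the offsets, against 286 in the main fit.

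Mmp17, the lipid-anchored protease with the most transcripts per length of the 7 (chromosome 5, 129584169 to 129611099, plus strand), measured 186, 176 and 177 CPM at 6 months and 235, 180 and 197 CPM at 16 months. Replicate 2 of 16 months lay within the 6-month values and replicate 1 stood apart above them. The log2 fold change was 0.18 (95% interval −0.013 to 0.38), not called. It was 0.067 without replicate 1 of 16 months and 0.27 without replicate 2, where the gene was called, and it was 0.13 and called with the GC and length offsets. These settings called 2211 genes (without replicate 2) and 2376 of 17120 genes (offsets) over all genes.

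Mmp14, which activates pro-Mmp2 at the cell surface (chromosome 14, 54431612 to 54445364, plus strand), measured 10.7, 9.20 and 10.5 CPM at 6 months and 11.6, 8.51 and 9.60 CPM at 16 months. The 16-month samples held both the highest and the lowest value. The log2 fold change of −0.038 had a 95% interval of −0.29 to 0.21, and it was −0.17 without replicate 1 of 16 months and turned to 0.054 without replicate 2 of 16 months and to 0.004 without replicate 1 of 6 months.

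Mmp16, the third of the membrane-spanning proteases (chromosome 4, 17852893 to 18119145, plus strand), was steady at 6 months with 44.4, 43.7 and 44.2 CPM and measured 38.8, 44.9 and 39.3 CPM at 16 months. The pattern across the 16-month samples was the reverse of that of Mmp15 and Mmp17, with replicate 2 highest. Its log2 fold change was −0.11 (95% interval −0.25 to 0.039), not called, and it was −0.071 without replicate 1 of 16 months and −0.18 and called without replicate 2. Without replicate 2, 2211 genes were called over all genes. The processed pseudogene Gm11860 lies within Mmp16 without sharing exon bases and had 9 counts over all samples.

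The gelatinases were low and overlapped between the ages. Mmp2, which cleaves denatured collagen and basement membrane (chromosome 8, 92827291 to 92853420, plus strand), measured 2.41, 2.10 and 2.36 CPM at 6 months and 2.62, 2.26 and 2.75 CPM at 16 months, from 63 to 113 counts per sample. Its log2 fold change was 0.15 (95% interval −0.13 to 0.42), with 0.12 and 0.22 without replicates 1 and 2 of 16 months. All aged samples but replicate 2 lay above the young ones. Mmp9, known for its part in synaptic plasticity (chromosome 2, 164940780 to 164955850, plus strand), measured 1.32, 1.20 and 0.882 CPM at 6 months and 1.57, 1.08 and 1.26 CPM at 16 months, from 34 to 62 counts. With a log2 fold change of 0.20 the 95% interval ran from −0.26 to 0.67, wider than for the other members apart from Mmp12. The log2 fold change was 0.049 without replicate 1 of 16 months and 0.31 without replicate 2.

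The inhibitors were measured most precisely. Timp2, which also helps Mmp14 to activate pro-Mmp2 (chromosome 11, 118301069 to 118355740, minus strand), measured 260, 244 and 253 CPM at 6 months and 276, 255 and 253 CPM at 16 months. The ages overlapped, and the 95% interval of its log2 fold change of 0.052 ran from −0.071 to 0.17. Without replicate 1 of 16 months it was 0.010, and without replicate 2 it was 0.068. Timp3, the inhibitor that binds to the matrix (chromosome 10, 86300372 to 86349506, plus strand), measured 70.01, 74.6 and 72.8 CPM at 6 months and 72.9, 81.6 and 75.9 CPM at 16 months. Its log2 fold change was 0.084 (95% interval −0.047 to 0.22), with 0.12 and 0.039 without replicates 1 and 2 of 16 months. The gene lies inside Syn3 on the opposite strand, and 1733 of its exon bases (21.3%) are also exons of Syn3, which had 2703 counts. The library kit does not mark strand, so reads in that stretch could not be assigned by strand. Where such reads were left uncounted, the level per length of Timp3 is too low, since these bases stay in its length.

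Timp4, an inhibitor that is prominent in brain and heart (chromosome 6, 115241892 to 115252205, minus strand), measured 34.4, 33.5 and 34.5 CPM at 6 months and 38.7, 34.8 and 34.8 CPM at 16 months. The ages lay apart by a small margin (34.76 against 34.50 CPM), with a log2 fold change of 0.081 (95% interval −0.055 to 0.22) that was not called. Without replicate 1 of 16 months, the highest sample, it was 0.027, and without replicate 2 it was 0.11. Timp4 lies inside Syn2, a synapsin gene with 121622 counts on the opposite strand, and shares 90 exon bases (1.53%) with it. In the other exon bases of Timp4, reads from Syn2 transcripts could not be told apart by strand either, and their part was not tested. Timp4 also overlaps Gm17482, with 5 counts and no shared exon, and Timp2 overlaps Cep295nl, with 37 counts and no shared exon.

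**Figure D2:**
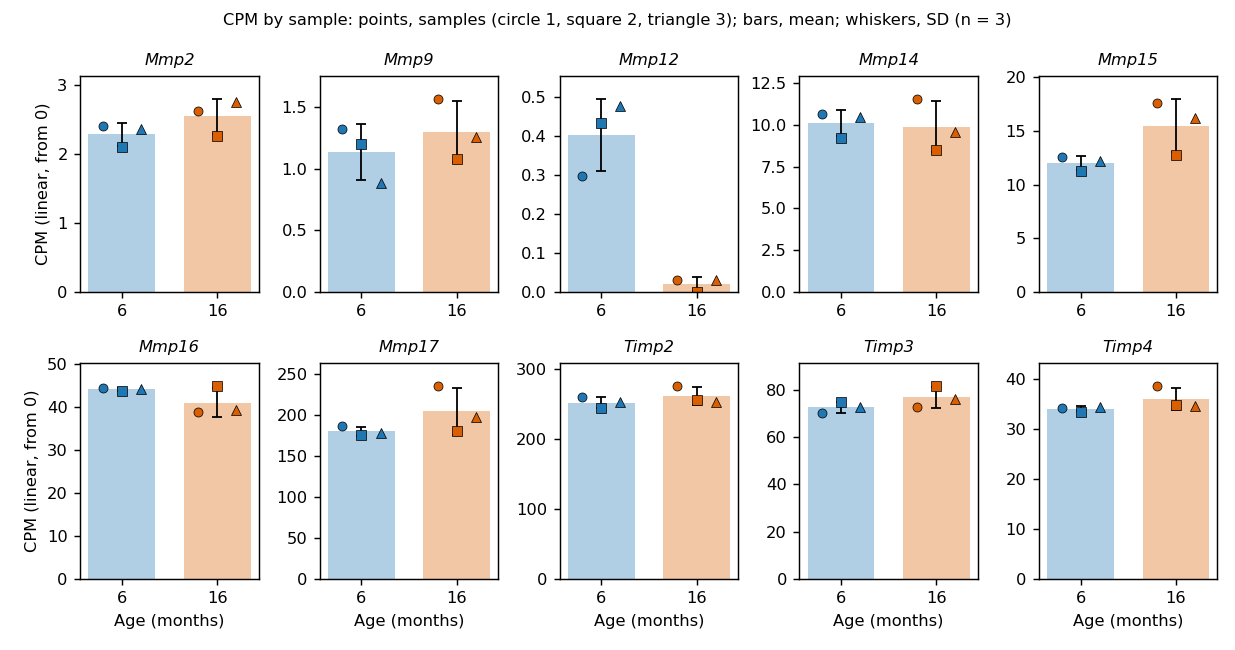
CPM of each of the 10 genes at 6 and 16 months, with a linear axis from 0 in each panel. Points are samples, bars the mean and whiskers the SD (n = 3), and the mean of Mmp12 goes from 0.403 to 0.0198 CPM with all aged samples below all young ones.

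All 10 genes passed the filter on low counts, Mmp12 through its 6-month samples alone. Of them, 7 had a positive and 3 a negative log2 fold change, with a median of 0.082 where the median over all tested genes was 0.001. Samples of the ages did not overlap for 1 gene that was lower at 16 months, Mmp12, where 11.5% of all tested genes lay apart in that direction, and for 2 that were higher, Mmp15 and Timp4, where 12.2% of all genes did. None of the 3 inhibitors was called, by edgeR or by DESeq2, and the 95% intervals of their log2 fold changes lay between −0.071 and 0.22.

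**Figure D3:**
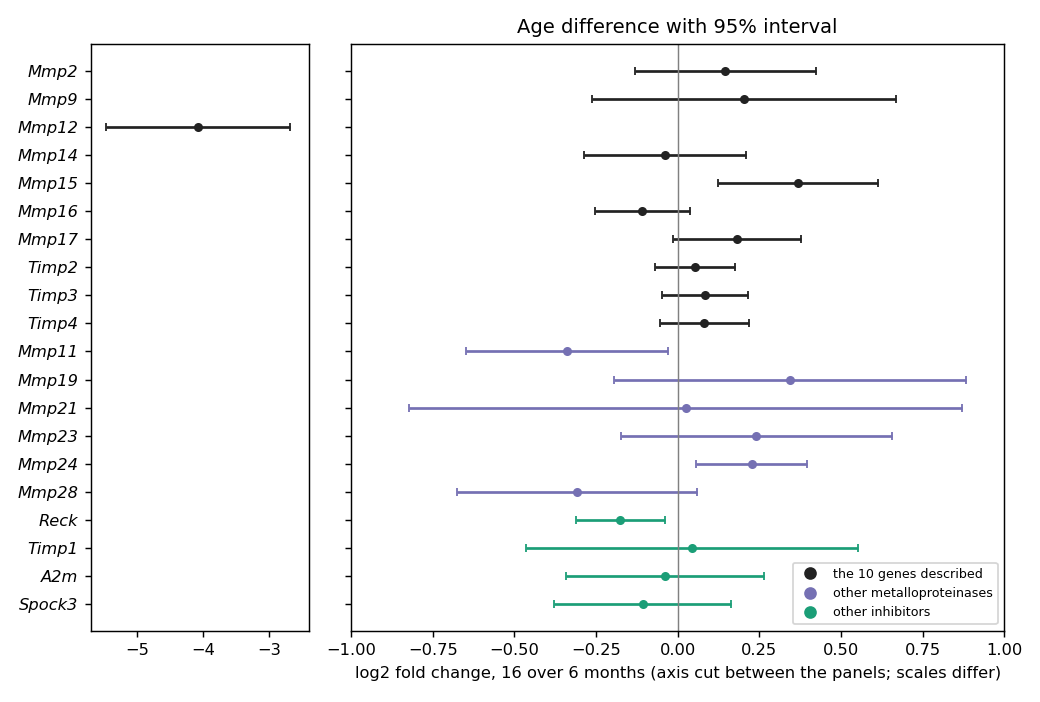
Log2 fold change, 16 over 6 months, with its 95% interval, for the 10 genes (black), the other tested metalloproteinases (purple) and the other tested inhibitors (green), on an axis cut between the panels. Mmp12 lies alone at −4.08, and all other genes shown lie between −0.34 and 0.37.

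Leaving Mmp12 aside, whose log2 values at 0 and 1 counts depend on the prior count, the SD of log2 CPM was larger at 16 months than at 6 months for 8 of 9 genes, Mmp9 being the exception (0.29 and 0.26). For Mmp16 the SD went from 0.011 to 0.12, for Mmp17 from 0.045 to 0.20 and for Mmp15 from 0.079 to 0.24. Over all tested genes the median SD was 0.063 at 6 months and 0.13 at 16 months.

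Replicates 1 and 2 of 16 months, which differed in their relation to GC content, were set against each other for the same 9 genes. At 16 months replicate 1 exceeded replicate 2 by 0.53 on the log2 scale for Mmp9, by 0.46 for Mmp15, by 0.44 for Mmp14 and by 0.39 for Mmp17, all with transcripts of 54.3% to 59.6% GC. The difference was negative for Mmp16 (−0.21) and Timp3 (−0.16), whose transcripts hold 42.2% and 46.8% GC, and it was 0.15 for Timp4 (47.7% GC), 0.11 for Timp2 (53.7%) and 0.21 for Mmp2 (55.3%). Over these 9 genes r with GC content was 0.869 at 16 months and 0.731 for the same difference at 6 months, where the differences were smaller and lay between −0.091 and 0.22. These 9 points come from 1 pair of libraries at each age and are no replicates. Whether GC content accounts for the spread of the proteases was not tested.

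**Figure D4:**
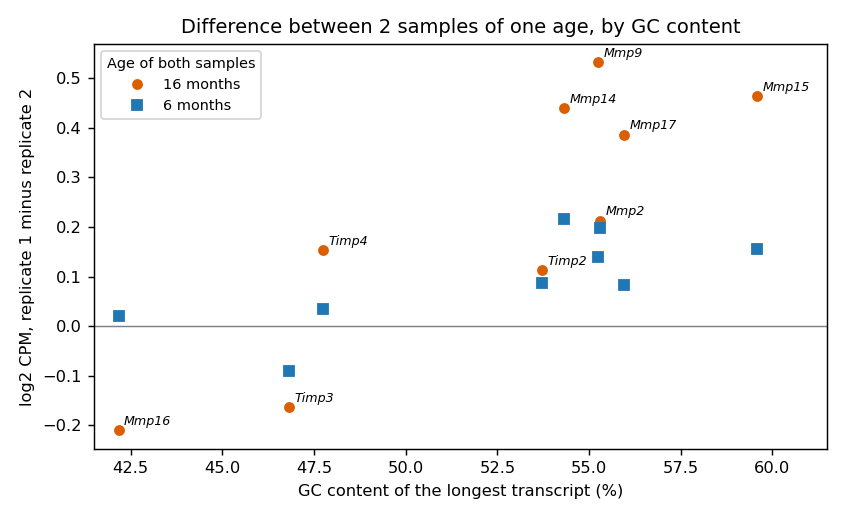
Difference in log2 CPM between replicates 1 and 2 of one age against the GC content (%) of the longest transcript, for the 9 genes without Mmp12, orange circles for 16 months and blue squares for 6 months. At 16 months the differences run from −0.21 for Mmp16 at 42.2% GC to 0.53 for Mmp9 at 55.2% GC.

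Other members of the protease family gave no call in the main test. Of 16 further metalloproteinase genes, 6 passed the filter, and edgeR's quasi-likelihood test and DESeq2 each called 0 of them, while 2 had an unadjusted p under 0.05 (against 17.4% of all genes). These were Mmp24, a membrane-type protease of neurons, and Mmp11. Mmp24 measured 37.0 ± 0.522 CPM at 6 months and 43.3 ± 4.68 CPM at 16 months (SD, n = 3), with a log2 fold change of 0.23 (adjusted p = 0.173 in edgeR's quasi-likelihood test), and its samples did not overlap. It was called without replicate 2 of 16 months (log2 fold change 0.30) and with the GC and length offsets (0.18), settings with 2211 and 2376 calls over all genes. Mmp11 measured 1.795 ± 0.0658 and 1.42 ± 0.126 CPM (log2 fold change −0.34, adjusted p = 0.244), also without overlap. Mmp19, Mmp21, Mmp23 and Mmp28 had log2 fold changes of 0.34, 0.024, 0.24 and −0.31 and overlapped between the ages, and Mmp25 was too low to be tested, with 3 to 12 counts per sample.

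Among 5 further inhibitors, 4 were tested and edgeR and DESeq2 called 0, with 1 at an unadjusted p under 0.05 (against 17.4%). This was Reck, an inhibitor anchored in the membrane, at 14.5 ± 0.195 CPM at 6 months and 12.9 ± 0.0914 CPM at 16 months (log2 fold change −0.18, SE 0.061, adjusted p = 0.182 in edgeR's quasi-likelihood test). All 3 aged samples of Reck lay below the young ones, and with the GC and length offsets the gene was called at −0.19, as were 2376 of 17120 genes. Timp1, the inducible member of the Timp family, had 56, 38 and 47 counts at 6 months and 33, 30 and 58 counts at 16 months, and its log2 fold change was 0.043 with an SE of 0.228. The proteinase inhibitor A2m and the proteoglycan Spock3 had log2 fold changes of −0.039 and −0.11, and Tfpi2 had at most 2 counts in a sample.

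Activators and clearance receptors of the proteases (12 tested of 13 listed) held 0 calls by either tool and 4 genes at an unadjusted p under 0.05 (against 17.4% of all genes), and their median log2 fold change was 0.069. The gene with the largest difference was Plaur, the urokinase receptor, at −0.43 (SE 0.198, adjusted p = 0.298 in edgeR's quasi-likelihood test). The 11 ADAM proteases, which shed surface proteins, held 0 calls by either tool and 2 genes at an unadjusted p under 0.05 (against 17.4%, median 0.036), with the largest difference for Adam33 at −0.38 (adjusted p = 0.114). Of 18 tested ADAMTS proteases of 19 listed, which include the enzymes that cleave aggrecan and other lecticans, edgeR called 0 and DESeq2 1 (against 2.67% of all genes), and 5 had an unadjusted p under 0.05 (against 17.4%, median −0.028). Adamts19 differed most, with 12, 8 and 15 counts at 6 months and 18, 15 and 19 counts at 16 months (log2 fold change 0.83, adjusted p = 0.149).

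The substrates held the one call among the pathway lists. Of 26 matrix and surface proteins, edgeR's quasi-likelihood test called 1, higher at 16 months, DESeq2 called 3 (against 2.67% of all genes) and 9 had an unadjusted p under 0.05 (against 17.4%), and the median was 0.040. The called gene was Tnr, which encodes tenascin-R, a protein that links perineuronal nets. Tnr rose from 70.9 ± 1.30 CPM at 6 months to 87.6 ± 5.80 CPM at 16 months (SD, n = 3, log2 fold change 0.31, SE 0.059, adjusted p = 0.0342 with Benjamini-Hochberg adjustment). The call was lost without any 1 of the 6-month samples (log2 fold changes of 0.29 to 0.32) and without replicate 3 of 16 months (0.32), and was kept without replicates 1 and 2 of 16 months (0.25 and 0.35).

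The genes most like Mmp12 and Mmp15 were sought as those with the smallest root mean square difference between log2 CPM profiles over the 6 samples, each centred on its mean. For Mmp12 they were Gm11223 (a difference of 0.264), the complement component C3 (0.403) and Zfp990 (0.502). This order depends on the prior count of 2 in log2 CPM, which shrinks differences at 0 and 1 counts. The fitted log2 fold changes were −2.76, −2.16 and −4.62, against −4.08 for Mmp12. C3 had 106, 54 and 80 counts at 6 months and 15, 11 and 18 at 16 months, Gm11223 had 141 to 232 and 22 to 27, and Zfp990 had 18 to 29 and 0 to 1, low in every aged sample as the choice by likeness to Mmp12 requires. For Mmp15 they were the chromatin protein gene Hmga1 (0.034), the potassium channel gene Kcng1 (0.049) and the lipase gene Pnpla2 (0.050), with log2 fold changes of 0.36, 0.36 and 0.34. Likeness over 6 samples chose these genes, and their age differences follow from the choice and carry no test.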

How the data were processed

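Whole cortical hemispheres were profiled by RNA sequencing in 3 samples of 6 months and 3 of 16 months. According to the study's methods, the authors trimmed reads with fastq-mcf, aligned them to mm10 with STAR in 2-pass mode and deposited counts per gene from HTSeq on the Ensembl annotation. The submitters' processing notes list CASAVA 1.8.2, STAR 2.3.0e and featureCounts 1.5.0-p1 instead. The annotation release and strand setting are not given in the sources used here. Reads overlapping more than 1 gene (1.42% to 1.57% of unique reads) were left uncounted, and 70.8% to 76.5% lay on a gene.

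Names, positions, lengths and GC content came from GENCODE (GRCm38), where 36602 of 38355 identifiers were found. The test was run in edgeR 4.0.16 under R 4.3.3 (filterByExpr, TMM, quasi-likelihood test, Benjamini-Hochberg adjustment over 17120 genes at 0.05, no covariates), with intervals at 95% and a prior count of 2 for log2 CPM. The installed edgeR uses the older form of the fit. P-values measure the spread between these samples, which the study describes as separate brains. The 95% intervals of the log2 fold changes come from the same fit and include the spread between samples. Reads carry no molecular identifiers, and the interval of the summed Mmp12 counts and the floors (3 counts) cover counting error only. The members and gene lists were chosen with earlier results of these data known. Named genes were the 10 members, every other listed metalloproteinase and inhibitor, each called gene of the other pathway lists or else the one with the largest log2 fold change, the 3 genes most alike to each of the 2 members that differed most, overlapping genes, and genes of the infiltrating myeloid list (Itgax, S100a8, S100a9 and Ly6c2, named after their values were seen).

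On simulated counts for 17120 genes with 200 changed, the test found 98% of genes with a log2 change of 1 and 84% of those with 0.5, and 4.71% of calls were false. The simulation gave all genes at both ages the same biological coefficient of variation (6.4%) and no relation to GC content. Genes with counts as low as those of Mmp12 were not among the changed ones. In the data the median SD of log2 CPM was 0.063 at 6 months and 0.13 at 16 months, so these rates need not hold here. Alternatives were DESeq2 1.42.0 (its size factors, its Wald test and, added after seeing the data, the Wald test without independent filtering), other filters, a replicate block, offsets for GC content and length (medians over 20 bins of genes), and each sample left out, in the case of named genes outside the 10 as an addition after seeing the data. Figures were drawn with matplotlib 3.10.9.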

Additional observations from a re-analysis of the deposited data

How the results depend on the processing

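Over all genes, the 286 calls became 648 without a filter on low counts, 470 with DESeq2's Wald test, 783 with the replicate block, 2376 with offsets for GC content and length and 3133 with offsets and block, and they ranged from 48 to 2211 when single samples were left out. Without replicates 1, 2 and 3 of 6 months they were 55, 57 and 48, and without those of 16 months 995, 2211 and 58. Among the 10 genes, the 1 call became 2 without a filter, 0 with at least 10 counts in every sample and 0 with DESeq2's Wald test, where Mmp12 was not tested or had no adjusted p after independent filtering, 2 with the replicate block, 3 with the offsets, 3 with offsets and block, and 0 to 4 when single samples were left out. In the pathway lists, the 1 call became 6 without a filter, 4 with the Wald test, 3 with the Wald test without independent filtering (chosen after seeing the data), 6 with the replicate block, 20 with the offsets, 24 with offsets and block, and 0 to 11 when single samples were left out. DESeq2's size factors in edgeR gave 285, 1 and 1 calls. With the replicate block, the offsets or both, 17120 genes were tested. Calls of members, pathway genes and single genes at a setting are to be read against the calls over all genes at that setting.

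Mmp12 was called in 9 of the 12 alternatives that gave it a value, with log2 fold changes between −4.42 and −3.60. Mmp15 was called in 5 of 14 (0.27 to 0.49), Mmp17 in 3 (0.067 to 0.27) and Mmp16 in 1 (−0.18 to −0.071), and Mmp2, Mmp9, Mmp14 and the 3 inhibitors in 0 of 14. Mmp14 was the one of the 10 whose sign turned. From −0.038 it ranged between −0.17 and 0.054 when single samples were left out, at 0.004 with 6-month replicate 1 omitted and 0.054 with 16-month replicate 2 omitted. Among the other named genes, Mmp21 turned from 0.024 to −0.016 with offsets and block and ranged from −0.55 to 0.28 with single samples left out, Timp1 from 0.043 ranged from −0.28 to 0.19, A2m from −0.039 ranged from −0.19 to 0.084 and Spock3 from −0.11 ranged from −0.26 to 0.026. The cause of these shifts was not tested.

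Same-numbered samples of the ages deviated together with r = 0.180, 0.0958 and 0.0351 across genes. Of 6 samples, 5 correlated best with their own number. These matches are not independent, since deviations within an age sum to 0 for each gene. Replicate 3 of 6 months stood at 0.0351 with its own number and at 0.0321 with replicate 2. The correlation with GC content also ranked the replicates alike at both ages (0.160, −0.130 and −0.023 at 6 months, 0.588, −0.582 and −0.055 at 16 months). The count is at most a hint from the data and not from the design, so the numbers were not taken as pairs. With 3 samples per age, the precision for Mmp9 and Mmp12 is limited by counts of at most 62 and 20 per sample.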
